A study of Mus musculus with 12 samples.

Results

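Arrays labelled as Treg cells with the TGF-β type II receptor gene deleted were compared with arrays labelled as control Treg cells. They were 6 of the 12 arrays of the series, 3 labelled Foxp3CreTgfbr2f/f and 3 labelled Foxp3Cre. All transcript clusters of these arrays were taken, and the arrays were chosen by their labels, not by any measured value. Both genotypes carry a YFP-Cre fusion in Foxp3, so Cre is made in cells that transcribe this X-linked gene, and the knockout mice also carry floxed Tgfbr2 alleles. The mice are labelled male and were on a C57BL/6 background, and their age at sorting is not given in the sources used. From spleen and lymph nodes, CD4+YFP+ cells were isolated by sorting, and their total RNA was hybridised to Affymetrix Mouse Genome arrays. The labels call the arrays biological replicates but do not say whether each holds 1 mouse or a pool, so the p-values below measure the spread between these arrays only. The other 6 arrays, labelled Foxp3Cre/+Lkb1f/f and Foxp3Cre/+ and female, enter only where they are named.

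TGF-β is a cytokine that binds a receptor made of type I and type II chains, and the type II chain, encoded by Tgfbr2, is needed to start the signal. The active receptor phosphorylates Smad2 and Smad3, which enter the nucleus with Smad4 and act on target genes, among them the inhibitors of the pathway itself such as Smad7 and Skil. In T cells TGF-β is known for the induction of Foxp3 and of the integrin αE (CD103, Itgae), and for restraining T helper 1 responses.

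The 6 arrays were not all brought to one distribution. The median log2 value was 5.49, 5.55 and 6.3 on Foxp3Cre replicates 1, 2 and 3, and 6.31, 5.48 and 5.52 on Foxp3CreTgfbr2f/f replicates 1, 2 and 3. Foxp3Cre replicate 3 and Foxp3CreTgfbr2f/f replicate 1 are therefore called the higher-intensity arrays and the other 4 the lower-intensity arrays, divided at a median of 6. Every value below is a log2 value minus the median of its own array, always in the order of replicates 1, 2 and 3, and every difference is knockout minus control on the log2 scale. Across transcript clusters, Pearson's r was 0.9822 to 0.9876 for arrays of different genotype in the same intensity set and 0.9584 to 0.9653 for arrays of the same genotype in different sets.

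The higher-intensity arrays went against their labelled sex. Xist, the RNA that silences 1 X chromosome in female cells, was at -0.53, -0.76 and 4.54 on the Foxp3Cre arrays and at 4.70, -0.40 and -0.93 on the Foxp3CreTgfbr2f/f arrays. Eif2s3y, a Y-linked translation factor gene, was at 3.23, 3.31 and -1.83 on the Foxp3Cre arrays and at -2.38, 3.55 and 3.37 on the Foxp3CreTgfbr2f/f arrays. The 4 lower-intensity arrays thus had the pattern of male cells, as labelled, and the 2 higher-intensity arrays that of female cells. Kdm5d and Uty, 2 further Y-linked genes, were high on the same 4 arrays and below the median on the same 2. The reverse was found in the Lkb1 experiment, labelled female, where replicate 3 of Foxp3Cre/+ and of Foxp3Cre/+Lkb1f/f had Xist at -1.0 and -1.24 and Eif2s3y at 3.11 and 3.0. The higher-intensity arrays may therefore be mislabelled, and whether they were exchanged between the experiments was not tested. Groups follow the labels throughout, so every value over the 6 arrays or from the 2 higher-intensity arrays is that of the arrays as labelled. The main results are given over the 6 arrays, in the 4 lower-intensity arrays with 2 per genotype, and in the 2 higher-intensity arrays (the higher-intensity pair) with 1 per genotype, which gives a value with no test.

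**Figure D1:**
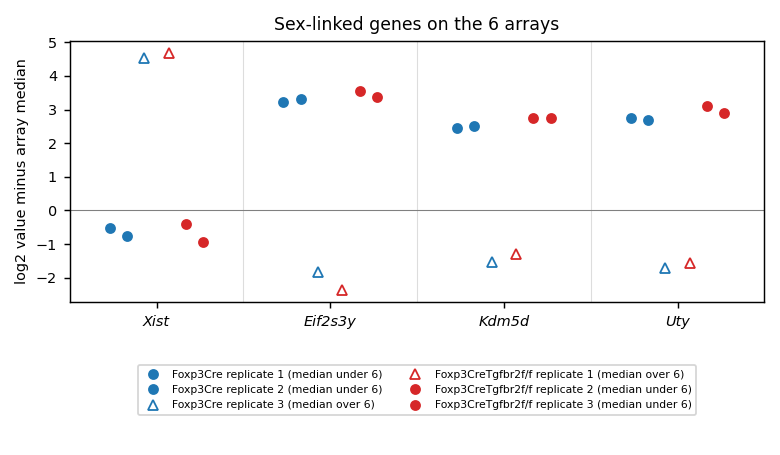
Log2 value minus array median (vertical axis) of the 4 measured sex-linked genes (horizontal axis) on each array; blue marks Foxp3Cre, red Foxp3CreTgfbr2f/f, filled circles the lower-intensity arrays and open triangles the higher-intensity arrays. The triangles lie high for Xist (4.54 and 4.70) and low for the Y-linked genes, opposite to the circles.

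The labelled cells had the genes that define them. Foxp3, the transcription factor of Treg cells, lay between 5.59 and 5.85 above the array median on all 6 arrays and differed by 0.13 (standard error 0.13, adjusted p = 1.00 by limma), and by 0.13 in either intensity set alone. Cd3e was between 6.18 and 6.71 and Cd4 between 3.81 and 4.74, and all 6 measured T cell markers were above the median on all 6 arrays. Tgfbr2 itself was at 3.04, 2.71 and 3.48 on the Foxp3Cre arrays and at 3.55, 2.51 and 2.31 on the Foxp3CreTgfbr2f/f arrays. The groups overlapped, with a difference of -0.29 (standard error 0.36, adjusted p = 1.00), of -0.47 within the lower-intensity arrays (standard error 0.17, adjusted p = 0.911) and of 0.07 in the higher-intensity pair. The sources used here do not say which exon is floxed, and the probes may lie outside it, so Tgfbr2 is no check of the labels.

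No transcript cluster passed an adjusted p of 0.05 in limma over the 6 arrays (0 of 41345, 0% in either direction), where 706 had an unadjusted p under 0.05 (254 lower and 452 higher in the knockout) and the unpaired Student's test named by the methods put 902 there and also called 0 after Benjamini-Hochberg adjustment. Within the 4 lower-intensity arrays 0 passed as well, with 2227 at an unadjusted p under 0.05 (894 lower, 1333 higher) and a smallest adjusted p of 0.163. Between 3 and 3 arrays an exact two-sided permutation test cannot go below 0.10. By size alone, 286 transcript clusters were lower by 1.5-fold or more over the 6 arrays (0.692%) and 618 were higher (1.49%). Among the 22709 genes that could be named, 131 were lower by 1.5-fold or more (0.577%) and 62 were higher (0.273%), and the groups did not overlap for 523 lower genes (2.3%) and 546 higher genes (2.4%). The median difference of all named genes was 0.0046 over the 6 arrays, 0.017 within the lower-intensity arrays and -0.022 in the higher-intensity pair.

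The 2 intensity sets mostly gave different genes. Within the lower-intensity arrays, 224 named genes were lower by 1.5-fold or more without overlap (0.986%) and 168 were higher (0.74%). Between the higher-intensity arrays 371 were lower by 1.5-fold or more (1.63%) and 279 higher (1.23%). The lists shared 28 lower genes, 12.5% of the 224 and 7.55% of the 371, while 14 of the 224 were higher by 1.5-fold or more in the higher-intensity pair. They shared 12 higher genes, 7.14% of the 168 and 4.3% of the 279, and 29 of the 168 were lower by 1.5-fold or more in the higher-intensity pair. Across the 12037 named genes above the array median, the differences in the 2 sets had a Pearson's r of -0.030, a description across genes that are not independent of one another. A test of whether the genotype difference itself differed between the sets called 0 transcript clusters after adjustment (smallest adjusted p 0.571 by limma, 1810 at an unadjusted p under 0.05). The higher-intensity set holds 1 array per genotype, so this test takes its spread from the lower-intensity arrays alone and assumes that the single arrays vary like them.

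The 28 genes lower in both sets (0.123% of the named genes) and the 12 higher in both (0.0528%) met the threshold of 1.5-fold with either set of arrays. They were chosen by these differences, so their values are a description. The gene with the lowest moderated statistic was Prg4, which encodes lubricin, a secreted mucin-like glycoprotein. Prg4 was at 1.66, 2.07 and 1.96 on the Foxp3Cre arrays and at 0.37, -0.26 and -0.33 on the Foxp3CreTgfbr2f/f arrays. All 3 knockout arrays lay below all 3 controls, with a difference of -1.97 (standard error 0.23, adjusted p = 1.00), of -2.16 within the lower-intensity arrays (standard error 0.18, adjusted p = 0.264) and of -1.59 in the higher-intensity pair.

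Il1rl1 encodes ST2, the receptor for the alarmin IL-33, which marks a tissue-type subset of Treg cells. Its values were 1.79, 1.72 and 1.15 on the Foxp3Cre arrays and -0.73, -0.19 and 0.10 on the Foxp3CreTgfbr2f/f arrays. All knockout arrays lay below all controls, and the difference was -1.83 (standard error 0.27, adjusted p = 1.00), nearly alike in the lower-intensity arrays at -1.80 (standard error 0.15, adjusted p = 0.264) and in the higher-intensity pair at -1.88. Itgae, the αE chain of the integrin that binds E-cadherin on epithelium, had the largest difference of those named as lower in both sets, with 4.54, 3.81 and 3.23 on the Foxp3Cre arrays and 0.93, 2.50 and 1.96 on the Foxp3CreTgfbr2f/f arrays. The lowest control stood above the highest knockout array, and the difference of -2.06 (standard error 0.47, adjusted p = 1.00) was -1.94 in the lower-intensity and -2.30 in the higher-intensity arrays.

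Ahr, which encodes the aryl hydrocarbon receptor, a ligand-activated transcription factor that senses small molecules from diet and microbes, was at 2.88, 1.94 and 1.89 on the Foxp3Cre arrays and at 0.99, 0.23 and 0.45 on the Foxp3CreTgfbr2f/f arrays. No knockout array reached a control, and the differences were -1.68 over the 6 arrays (standard error 0.32), -2.07 in the lower-intensity set and -0.90 in the higher-intensity set. Cpd, the gene of carboxypeptidase D, an enzyme of the secretory pathway, was at 2.70, 1.88 and 1.68 on the Foxp3Cre arrays and at 1.05, 0.13 and 0.08 on the Foxp3CreTgfbr2f/f arrays. Again the groups did not overlap, and the higher-intensity pair (-0.63) differed by less than the lower-intensity arrays (-2.19). Rgs16, which shortens signals from G protein-coupled receptors, was at 2.58, 1.72 and 2.04 against 1.19, 0.75 and 0.00 in the knockout, with differences of -1.47 over the 6 arrays (standard error 0.35), -1.78 in the lower-intensity set and -0.85 in the higher-intensity set.

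Of the other genes of this kind that were named, H4c14, a histone H4 gene, differed by -0.94 in the lower-intensity and by -1.07 in the higher-intensity arrays. The interferon-inducible GTPase gene Gbp2b differed by -0.80 and -1.07, and Cldnd1, Ncmap, Crmp1 and Plac8 by -0.99 to -0.61 in the lower-intensity arrays and by -1.11 to -0.77 in the higher-intensity arrays. Gpr15, a receptor for homing to the large intestine, was lower in both sets as well (-0.83 and -0.78), without overlap over the 6 arrays. In the opposite direction, Nedd4, a ubiquitin ligase, was at 1.22, 0.96 and 1.34 on the Foxp3Cre arrays and at 2.08, 1.80 and 1.77 on the Foxp3CreTgfbr2f/f arrays. The groups were apart, and the difference was 0.71 (standard error 0.17, adjusted p = 1.00), 0.70 in the lower-intensity and 0.74 in the higher-intensity arrays. Ramp3, an accessory protein of the calcitonin family receptors, was higher by 1.14 and 0.69, Ift57 by 0.63 and 1.11 and Igsf23 by 0.61 and 0.74.

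**Figure D2:**
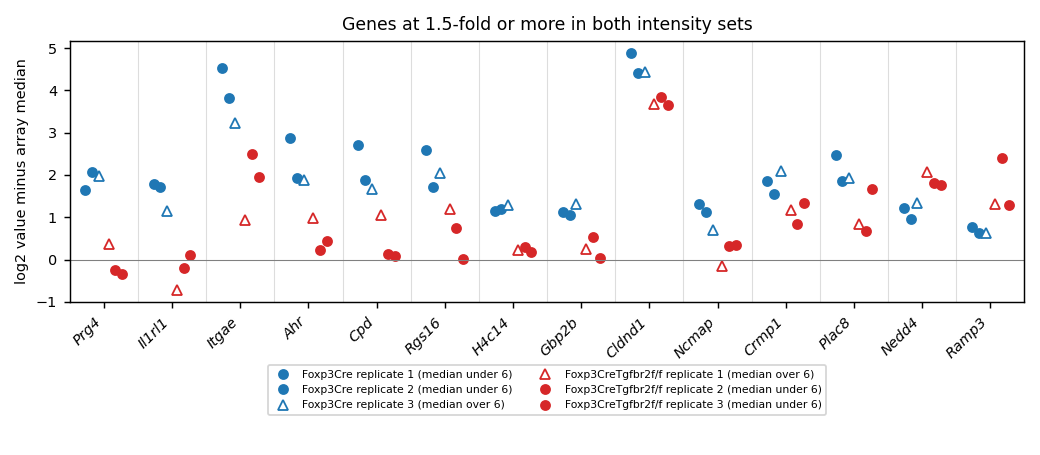
Log2 value minus array median (vertical axis) of 14 genes at 1.5-fold or more in both intensity sets (horizontal axis), 12 lower and 2 higher in the knockout; blue marks Foxp3Cre, red Foxp3CreTgfbr2f/f, filled circles the lower-intensity and open triangles the higher-intensity arrays. For each gene all red symbols lie on one side of all blue symbols, with differences from -2.06 (Itgae) to 0.99 (Ramp3).

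The RefSeq table of promoter windows, 250 bases before to 50 after a start on GRCm38.p6, held 8 of the 12 genes named as lower in both sets. The Smad box CAGAC, searched on both strands (as CAGAC or GTCTG), was in a window of 4 of these 8 genes (Rgs16, Ncmap, Crmp1 and Plac8) and in 49.6% of all 32851 windows. The palindrome GTCTAGAC was in none of the 8 and in 0.213% of all windows. These counts are by gene, and Crmp1, Il1rl1, Ncmap and Plac8 had 2 windows each. A share of genes is thus not directly comparable with a share of single windows. The windows below are those of Il1rl1, at its 2 annotated starts, and of Rgs16, shown as genes lower in both sets with no match and with 3 matches of CAGAC; capitals mark the matches.
Il1rl1, chr1:40429320-40429619, plus strand: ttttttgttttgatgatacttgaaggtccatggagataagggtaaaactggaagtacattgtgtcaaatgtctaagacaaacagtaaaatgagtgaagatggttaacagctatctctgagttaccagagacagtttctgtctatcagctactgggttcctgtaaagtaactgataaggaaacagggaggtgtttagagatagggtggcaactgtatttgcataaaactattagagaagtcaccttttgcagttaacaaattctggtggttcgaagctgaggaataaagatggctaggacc
Il1rl1, chr1:40439379-40439678, plus strand: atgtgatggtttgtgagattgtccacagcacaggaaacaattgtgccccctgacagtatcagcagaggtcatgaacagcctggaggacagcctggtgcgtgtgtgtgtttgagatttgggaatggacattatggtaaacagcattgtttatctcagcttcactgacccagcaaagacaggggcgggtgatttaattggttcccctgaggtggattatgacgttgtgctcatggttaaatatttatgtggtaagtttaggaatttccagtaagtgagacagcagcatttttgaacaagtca
Rgs16, chr1:153740103-153740402, plus strand: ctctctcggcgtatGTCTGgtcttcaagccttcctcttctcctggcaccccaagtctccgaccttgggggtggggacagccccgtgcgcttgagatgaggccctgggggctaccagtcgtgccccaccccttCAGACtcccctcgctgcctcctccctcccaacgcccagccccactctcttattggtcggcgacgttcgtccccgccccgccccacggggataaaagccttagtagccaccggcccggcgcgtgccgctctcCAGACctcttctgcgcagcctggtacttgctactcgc
Windows with 3 or more matches made up 3.9% of all windows. A match is a run of letters and not a measured binding site.

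The largest differences among inhibitors of the TGF-β pathway, those of Smad7 and Skil, came from the lower-intensity arrays, although the difference between the sets did not pass the test for either gene (adjusted p = 0.571 and 0.629 by limma). Smad7, the inhibitory Smad that takes the receptor to degradation, was at 3.90, 3.45 and 4.13 on the Foxp3Cre arrays and at 4.15, 0.30 and 0.48 on the Foxp3CreTgfbr2f/f arrays. Foxp3CreTgfbr2f/f replicates 2 and 3 lay far below every other array, whereas replicate 1 lay at the level of the controls. The difference was -3.28 in the lower-intensity arrays (9.74-fold lower, standard error 0.20, adjusted p = 0.231, unadjusted p = 1.7e-05) and 0.02 in the higher-intensity pair, and over the 6 arrays it was -2.18 (standard error 0.97, adjusted p = 1.00).

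Skil, which encodes the Smad corepressor SnoN, had the same pattern, at 3.55, 3.08 and 3.52 against 3.57, 0.63 and 0.45 in the knockout. It differed by -2.78 in the lower-intensity arrays (standard error 0.20, adjusted p = 0.264) and by 0.06 in the higher-intensity pair. Pmepa1 and Ldlrad4, which encode related inhibitors that bind Smad2 and Smad3, differed by -0.98 and -0.96 in the lower-intensity arrays and by 0.13 and -0.35 in the higher-intensity arrays. The corepressor gene Ski (-0.69 and -0.11) and the ubiquitin ligase gene Smurf2 (-0.66 and 0.07) were lower by 1.5-fold or more in the lower-intensity arrays alone. Bambi, a decoy receptor gene, stood at -0.34 and -0.45, and Smad6, the other inhibitory Smad gene, at -0.06 and -0.35.

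**Figure D3:**
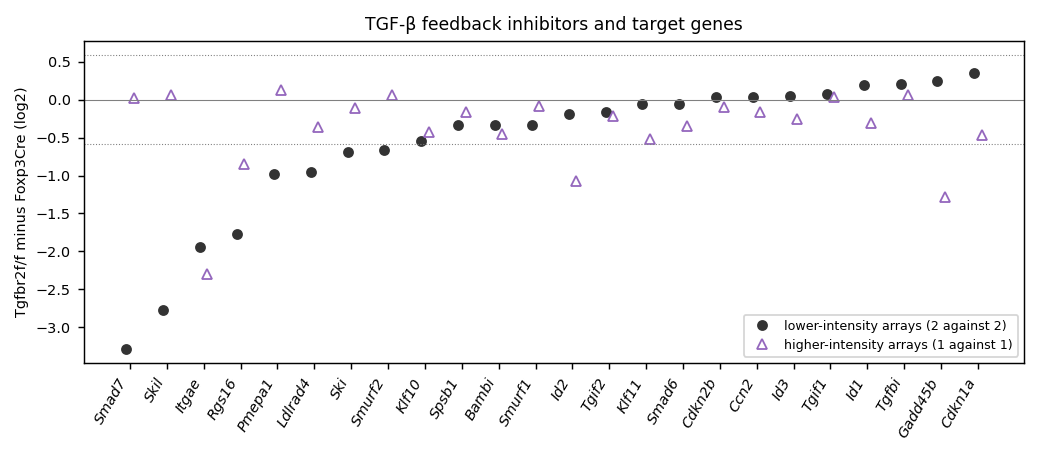
Knockout minus control on the log2 scale (vertical axis) for the 24 measured TGF-β feedback inhibitors and target genes (horizontal axis), filled circles within the lower-intensity arrays and open triangles in the higher-intensity pair; dotted lines mark 1.5-fold. Smad7 (-3.28) and Skil (-2.78) lie lowest among the circles while their triangles lie near 0 (0.02 and 0.06), and Itgae and Rgs16 are beyond 1.5-fold in both.

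In all, 24 of the 26 genes listed as feedback inhibitors or targets of TGF-β were measured. Of these 20 had a lower mean in the knockout over the 6 arrays, against 11004 of all 22709 named genes. The median of the 24 was -0.27 against 0.0046 for all named genes, and 0 passed the test. Within the lower-intensity arrays 8 of the 24 were lower by 1.5-fold or more without overlap and 0 higher (median -0.26, against 0.986% of named genes lower), and in the higher-intensity pair 4 were lower by 1.5-fold or more (median -0.23, against 1.63%). Both sets shared 2 of these, Itgae and Rgs16. Among the 24, Id2, an inhibitor of helix-loop-helix factors, and Gadd45b, a stress-response gene, were the ones beyond 1.5-fold in the higher-intensity arrays only (-1.07 and -1.29, against -0.19 and 0.24).

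All 20 listed ligands, activating proteins, receptors and Smads of the pathway were measured. Over the 6 arrays 0 of them were at 1.5-fold or more (median 0.0047), as in the higher-intensity pair (median 0.05), and in the lower-intensity arrays 2 were lower by 1.5-fold or more without overlap, Tgfbr1 and Tgfbr3 (median -0.02, against 0.986% of named genes). Tgfb1, the main ligand in immune cells, was at 4.41, 4.25 and 4.76 against 4.77, 4.40 and 4.25, which overlapped almost wholly (difference 0.0014, standard error 0.20). Tgfbr1, the type I receptor gene, was at 2.20, 2.02 and 2.41 against 2.54, 1.11 and 1.51. It was lower in the lower-intensity arrays (-0.79, standard error 0.18, adjusted p = 0.795) and at 0.13 in the higher-intensity pair. Tgfbr3, the coreceptor betaglycan, stood at -0.72 and -0.07, Smad3 at 0.57 and 0.03, Smad2 at -0.01 and -0.02, and Smad4 at -0.02 and 0.17.

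Outside the pathway, several of the 12 genes with the lowest statistics in the lower-intensity arrays had the pattern of Smad7. Ctsw, the gene of the lysosomal protease cathepsin W, was at 3.86, 4.11 and 3.91 on the Foxp3Cre arrays and at 3.98, 1.19 and 1.10 on the Foxp3CreTgfbr2f/f arrays. It was 7.17-fold lower in the lower-intensity arrays (-2.84, standard error 0.14, adjusted p = 0.164) and differed by 0.07 in the higher-intensity pair. St8sia6, a sialyltransferase gene, was at 3.20, 3.25 and 3.75 against 3.69, 0.51 and 0.36, so that replicates 2 and 3 of the knockout again stood alone at the bottom (-2.79, standard error 0.13, adjusted p = 0.164, and -0.06 in the higher-intensity arrays).

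Apol9b, of the apolipoprotein L family, was at 2.94, 2.46 and 3.56 against 3.32, -0.92 and -0.28, that is -3.30 in the lower-intensity and -0.24 in the higher-intensity arrays. Ikzf4, which encodes Eos, a partner of Foxp3 in gene repression, was at 3.59, 3.26 and 3.30 against 3.44, 1.90 and 1.69 (-1.63 and 0.14). Igfbp4, a gene of resting T cells, differed by -1.75 and -0.05, Arhgap20 by -1.66 and 0.53, and Gsta4 by -1.32 and 0.07. Each was thus lower in the 2 lower-intensity knockout arrays and at control level or above it on Foxp3CreTgfbr2f/f replicate 1, apart from Apol9b, which lay there slightly below the one control of its own set.

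Among genes higher in the lower-intensity arrays, several went the other way in the higher-intensity pair. Csf1, the macrophage growth factor gene, was at 1.70, 2.05 and 1.71 on the Foxp3Cre arrays and at 0.76, 3.19 and 3.08 on the Foxp3CreTgfbr2f/f arrays. Replicates 2 and 3 of the knockout were above all controls and replicate 1 below them all, so the difference was 1.26 (standard error 0.17, adjusted p = 0.624) in one set and -0.96 in the other. Nrn1, which encodes neuritin, was at 1.66, 1.74 and 1.90 against 0.37, 3.21 and 2.84, a difference of 1.33 (standard error 0.17, adjusted p = 0.624) and of -1.53. Gpr183, the oxysterol receptor that guides lymphocytes in lymphoid organs, stood at 0.98 and -0.63, Podnl1 at 0.99 and -0.81, Plpp1 at 1.20 and -0.48, and Hip1 at 1.04 and -0.41.

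Lilrb4a, an inhibitory receptor gene, had the largest difference among the genes higher in the lower-intensity arrays that are named (1.68, standard error 0.24, adjusted p = 0.626), with 4.0, 3.90 and 0.15 against -0.07, 5.96 and 5.30. Both higher-intensity arrays lay far below every lower-intensity array, whatever the genotype. Tbx21, the T helper 1 factor T-bet, was at 1.46, 1.43 and 1.19 against 1.00, 2.25 and 2.66, higher in the lower-intensity knockout arrays (1.01, standard error 0.18, adjusted p = 0.702) and at -0.18 in the higher-intensity pair. Il12rb2, a chain of the IL-12 receptor, was higher in both sets (0.57 and 0.96) without overlap over the 6 arrays, from between -0.58 and -0.45 on the Foxp3Cre arrays to between 0.06 and 0.38 on the Foxp3CreTgfbr2f/f arrays. It missed 1.5-fold in the lower-intensity arrays, and its adjusted p there was 0.768.

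In the higher-intensity pair, the 8 lowest differences among genes above the array median, with predicted loci, ribosomal RNAs and microRNAs left out, were those of Itgae and Il1rl1, of Casp1, Fosb, Gucy1a1 and Klrg1, and of 2 mitochondrial tRNA genes. Klrg1, an inhibitory receptor of terminally differentiated T cells, was at 3.62, 3.19 and 1.79 on the Foxp3Cre arrays and at -0.03, 4.10 and 4.09 on the Foxp3CreTgfbr2f/f arrays. The difference was -1.82 in the higher-intensity pair and 0.70 in the lower-intensity arrays. Casp1, the inflammasome protease gene, was at 2.95, 2.82 and 1.21 against -1.04, 3.82 and 3.38 (-2.25 and 0.72), and Maf, a transcription factor gene of IL-10-producing T cells, at 3.66, 3.57 and 2.78 against 1.08, 3.60 and 3.71 (-1.70 and 0.04). For all 3 genes the array labelled Foxp3CreTgfbr2f/f replicate 1 was the lowest of the 6, and Foxp3Cre replicate 3 the next.

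Fosb, an AP-1 subunit gene, stood at -2.16 in the higher-intensity pair and at 0.36 in the lower-intensity arrays, Gucy1a1, a soluble guanylate cyclase subunit gene, at -1.93 and 0.50, and Kit, the stem cell factor receptor gene, at 1.81 and -0.15. These differences between 2 single arrays have no replicate check.

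**Figure D4:**
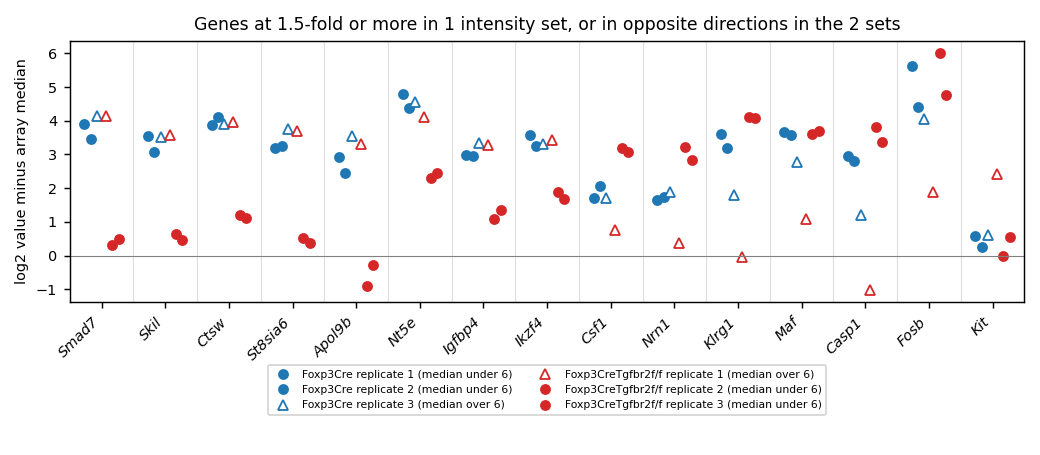
Log2 value minus array median (vertical axis) of 15 genes at 1.5-fold or more in 1 intensity set, or in opposite directions in the sets (horizontal axis); colours and symbols are those of the plot of genes that differed in both sets. From Smad7 to Ikzf4 the red circles lie well below every other symbol. For Csf1 and Nrn1 the red circles are high and the red triangle is low, and from Klrg1 to Fosb the red triangle is the lowest symbol, as at -1.04 for Casp1.

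The gene lists divided in the same way. Of the 23 genes of effector Treg cells, 12 were lower by 1.5-fold or more in the higher-intensity pair and 1 higher (median -0.61, against 1.63% and 1.23% of named genes), whereas 3 were lower and 5 higher in the lower-intensity arrays (median 0.13, against 0.986% and 0.74%). Cxcr3, a chemokine receptor of T helper 1 type cells, stood at 0.95 in the lower-intensity and at -1.17 in the higher-intensity arrays, Tigit, an inhibitory receptor, at 0.67 and -1.64, and Gzmb, granzyme B, at 0.48 and -1.25. Of the 13 measured genes of resting Treg and naive T cells, 6 were lower by 1.5-fold or more and 0 higher in the lower-intensity arrays (median -0.45, against 0.986% and 0.74% of named genes), and in the higher-intensity pair 0 were lower and 1 was higher, the cytokine receptor gene Il7r at 0.69 (median 0.20, against 1.63% and 1.23%). Bach2, a repressor of effector programmes, stood at -0.85 and 0.51, the lymph node homing receptor gene Ccr7 at -0.77 and 0.13, and Klf2 at -0.66 and -0.16.

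The 12 suppressor and inflammation genes that the study had singled out on arrays of this series were lower over the 6 arrays in 10 cases (median -0.42), which is not independent evidence of their direction. Among all 22709 named genes, 11004 were lower over the 6 arrays. Of these 12, Il1rl1 and Itgae were lower by 1.5-fold or more in both sets. Nt5e, which encodes CD73, the ectoenzyme that makes adenosine, was at 4.80, 4.39 and 4.57 on the Foxp3Cre arrays and at 4.10, 2.30 and 2.45 on the Foxp3CreTgfbr2f/f arrays. The groups did not overlap, but the step was -2.22 in the lower-intensity arrays (standard error 0.18, adjusted p = 0.264) and -0.47 in the higher-intensity arrays. Ccr6, a receptor for homing to inflamed mucosa, was lower in the lower-intensity arrays only (-1.12 and 0.21), while Nrp1 (-0.29 and -1.07), Entpd1 (-0.33 and -0.75), Cybb (0.34 and -1.49) and Il10 (0.13 and -0.61) were lower by 1.5-fold or more in the higher-intensity pair only.

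Of 22 Treg identity genes 4 were lower by 1.5-fold or more over the 6 arrays and 0 higher (median 0.01, against 0.577% and 0.273% of named genes). They were Itgae and Ikzf4, given above, Socs2, a suppressor of cytokine signals (-0.46 in the lower-intensity arrays and -1.06 in the higher-intensity pair), and Capg, an actin-capping protein gene (-0.81 and -0.30). In the lower-intensity arrays 4 were lower without overlap, Itgae, Ikzf4, Gpr83 and Capg (against 0.986% of named genes). In the higher-intensity pair 3 were lower, Itgae, Nrp1 and Socs2 (against 1.63%), and 0 were higher in either set. Only Itgae was lower by 1.5-fold or more in both. Gpr83 differed by -1.02 and 0.50, and Il2ra, Ctla4 and Ikzf2 by -0.32 to 0.16 in either set. Of the genes of helper T cells, 2 were higher by 1.5-fold or more over the 6 arrays, Tbx21 and Il12rb2. Of the 17 measured AP-1 and immediate early genes, 5 were lower by 1.5-fold or more in the higher-intensity pair (against 1.63% of named genes). In that pair 1 was higher, Fosl2 at 0.99 (against 1.23%). In the lower-intensity arrays 0 were lower and 1 was higher by 1.5-fold or more without overlap, Nr4a2 at 0.68 (against 0.986% and 0.74%). Jun (-0.63) and Fosl2 (0.94) also passed 1.5-fold there, but with overlapping groups. Of 22 measured cell cycle genes 0 reached 1.5-fold in either set (median -0.09). Of 15 measured interferon response genes 2 were lower by 1.5-fold or more over the 6 arrays, Apol9b and Apol9a, and Foxp3Cre replicate 1 stood apart within its group for Oas2 (4.12 against 2.21 and 1.56 on the other controls).

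Markers of other cells that the sort could hold were compared in the same way. Among all named genes, 0.577% were lower and 0.273% higher by 1.5-fold or more over the 6 arrays. These shares were 0.986% and 0.74% in the lower-intensity arrays, without overlap, and 1.63% and 1.23% in the higher-intensity pair. Of 18 macrophage and monocyte markers 0 were at 1.5-fold or more over the 6 arrays or in the lower-intensity arrays (median 0.12 and 0.045), and 2 were higher in the higher-intensity pair, Csf1r (0.73) and Slc40a1 (0.66). Their mean level was -0.21 to 0.24 on the Foxp3Cre arrays and -0.11 to 0.30 on the Foxp3CreTgfbr2f/f arrays. Of 15 measured B cell markers Cd22 was at 1.5-fold or more over the 6 arrays (1.49 in the lower-intensity arrays and -0.60 in the higher-intensity pair). Ebf1 (0.64) and Ighm (-0.60) were so in the higher-intensity pair. The mean levels of the list were -0.13 to 0.11 on the Foxp3Cre arrays and 0.0012 to 0.13 on the Foxp3CreTgfbr2f/f arrays. Ighm lay far above these means, at 6.80, 6.65 and 5.97 on the Foxp3Cre arrays and at 5.37, 7.07 and 6.93 on the Foxp3CreTgfbr2f/f arrays. None of the measured dendritic cell, natural killer cell, CD8 T cell, erythroid and platelet or neutrophil markers (10, 5, 5, 3 and 9 genes) reached 1.5-fold over the 6 arrays or, without overlap, in the lower-intensity arrays. In the higher-intensity pair the neutrophil markers Ngp (0.99) and Ltf (0.65), the erythroid marker Slc4a1 (0.72) and the natural killer cell marker Klra9 (-0.65) did. The part of these cells in the results was not tested. In RNA of sorted cells, fewer cells of a type and less RNA per cell cannot be told apart.

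The difference between the Tgfbr2 and the Lkb1 deletions, each against its own control, was tested over the 12 arrays, and 0 transcript clusters passed an adjusted p of 0.05 (0% of 41345; smallest adjusted p 1.00 by limma, 406 at an unadjusted p under 0.05). With the 8 lower-intensity arrays of both experiments 0 passed, with 2076 at an unadjusted p under 0.05 and a smallest adjusted p of 0.162. Among the lower-intensity arrays the Tgfbr2 difference minus the Lkb1 difference was -3.17 for Smad7 (standard error 0.54, adjusted p = 0.409), -2.66 for Skil (standard error 0.36, adjusted p = 0.297) and -2.74 for Ctsw (standard error 0.32, adjusted p = 0.297). For Klrg1 it was 3.69 (standard error 0.79, adjusted p = 0.614) and for Csf1 2.23 (standard error 0.23, adjusted p = 0.297). Prg4, with like differences in both experiments, had -0.07 (standard error 0.28, adjusted p = 0.999).

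The Lkb1 arrays were also divided by intensity, with replicate 3 of each genotype in the higher-intensity set. The Tgfbr2 differences of the lower-intensity arrays had a Pearson's r of 0.566 with the differences between the higher-intensity Lkb1 arrays and of -0.121 with those of the lower-intensity Lkb1 arrays, across the 12037 named genes above the array median. The differences between the higher-intensity Tgfbr2 arrays had an r of 0.356 with those of the lower-intensity Lkb1 arrays and of -0.054 with those of the higher-intensity Lkb1 arrays. These comparisons share no array, but genes of one array are not independent, and no p is given.

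By count, 141 of the 224 genes lower in the lower-intensity Tgfbr2 arrays (62.9%, which is 27.5% of the 512 lower there) were lower by 1.5-fold or more between the higher-intensity Lkb1 arrays, against 2.25% of all named genes, and 43 (19.2%, and 5.38% of 799) were so in the lower-intensity Lkb1 arrays, against 3.52%. Of the 371 genes lower between the higher-intensity Tgfbr2 arrays, 146 (39.4%, and 18.3% of 799) were lower by 1.5-fold or more in the lower-intensity Lkb1 arrays, against 3.52%, and 49 (13.2%, and 9.57% of 512) in the higher-intensity ones. Of the 168 genes higher in the lower-intensity Tgfbr2 arrays, 64 (38.1%, and 13.6% of 470) were higher between the higher-intensity Lkb1 arrays and 10 (5.95%, and 3.1% of 323) in the lower-intensity ones, against 2.07% and 1.42% of named genes. Of the 279 genes higher between the higher-intensity Tgfbr2 arrays, 34 (12.2%, and 10.5% of 323) were higher in the lower-intensity Lkb1 arrays, against 1.42%. Between the higher-intensity Lkb1 arrays 22 of the 279 were higher (7.89%, and 4.68% of 470), against 2.07%. Smad7 differed by -3.14 and Skil by -2.98 between the higher-intensity Lkb1 arrays, and by -0.11 and -0.12 in the lower-intensity Lkb1 arrays. Klrg1 and Maf, lower between the higher-intensity Tgfbr2 arrays, stood at -3.0 and -1.62 in the lower-intensity Lkb1 arrays and at 0.88 and 0.02 between the higher-intensity ones. Itgae, Prg4 and Il1rl1 were lower in both sets of both experiments, by -3.18, -2.09 and -2.47 in the lower-intensity and by -2.25, -1.81 and -1.31 in the higher-intensity Lkb1 arrays. The higher-intensity arrays of both experiments are those that went against their labelled sex, and the part of a possible exchange of arrays in these likenesses was not tested.

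**Figure D5:**
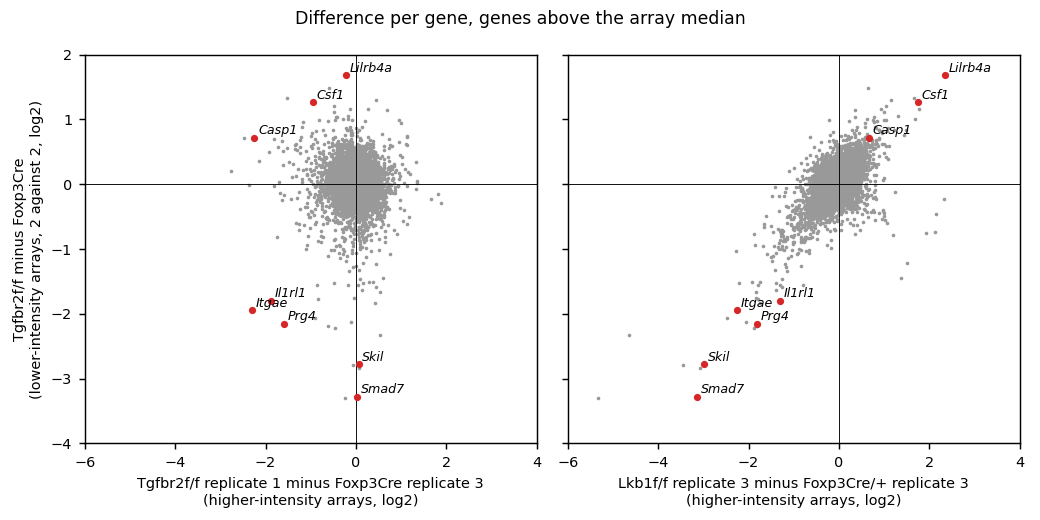
Each grey point is 1 of 12037 named genes above the array median; the vertical axis is knockout minus control (log2) in the lower-intensity Tgfbr2 arrays, and the horizontal axis the log2 difference between the higher-intensity Tgfbr2 arrays (left) or between the higher-intensity Lkb1 arrays (right), with 8 genes in red. On the left the points form no line (r = -0.030) and Smad7 and Skil lie at 0, and on the right they follow a rising line (r = 0.566).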

How the data were processed

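The authors hybridised RNA of sorted CD4+YFP+ cells to Affymetrix arrays, used GeneSpring to process them, and for 41345 transcript clusters deposited a log2 value on each array. Their summarisation and normalisation are not stated for these values, so that step is unknown. The values run from 1.94 to 14.00, and their medians differ between 2 sets of arrays, which were divided at 6. From the deposited log2 values each array's own median was subtracted. Groups were taken from the sample labels and compared in R 4.3.3 by lmFit and eBayes of limma 3.58.1, without covariates or filters, and p was adjusted by Benjamini-Hochberg across every transcript cluster, with a threshold of 0.05. A moderated statistic is the difference over limma's standard error. The fits were tested on simulated arrays, which is no check of the labels or the intensity sets of the real arrays.

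Names came from the platform annotation (23521 transcript clusters with 1 symbol, 1820 with several and not named, 16004 with none), with 588 of the last named from the study's supplementary tables , including Il1rl1. Where a gene had several, the one with the highest mean on the 12 arrays stood for it. Coordinates are those of the RefSeq promoter table on GRCm38.p6, and array coordinates are not given.

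The genes named were those the study names, the 12 lowest and 12 highest moderated statistics over the 6 arrays among genes at 1.5-fold or more in both sets (5 higher genes met this), up to 3 members of each of 23 gene lists, and members of the TGF-β and marker lists, without predicted loci, small RNAs and receptor segments. The lowest and highest genes of each intensity set alone, and further list members, were added after their values were seen. Members and lists were chosen with earlier results of these data known. Some genes that these rules name are not reported here.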

Additional observations from a re-analysis of the deposited data

How the results depend on the processing

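The count of transcript clusters past an adjusted p of 0.05 was 0 in each alternative run. Over the 6 arrays these were values as deposited, quantile normalisation, a trend and robust prior, array weights, filters on level and on annotation, all 12 arrays in one model, the methods' test, the intensity set as a block, a threshold of 0.1 and leaving out each array in turn. In the lower-intensity arrays they were both scalings, the trend and robust prior, the filter on level, 8 arrays in one model, the threshold of 0.1 and leaving out each array, and for the difference from the Lkb1 deletion both scalings, the 8 lower-intensity arrays and the set as a block. The smallest adjusted p over the 6 arrays was 1.00 in the main setting, 0.159 with the intensity set as a block (2097 at an unadjusted p under 0.05) and 0.0522 without Foxp3CreTgfbr2f/f replicate 1 (1628). Replicate numbers were checked as pairs. The deviations from group means of arrays with the same number correlated at -0.52, 0.23 and -0.57 for numbers 1, 2 and 3. All knockout and control pairs across intensity sets had an r of -0.57 to -0.47, and those within a set 0.23 to 0.72. Numbers 1 and 3 each join arrays of different sets, so this check cannot decide whether the numbers pair the arrays. With the replicate block 0 passed, and 495 had an unadjusted p under 0.05.

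The number of transcript clusters at 1.5-fold or more (alternatives added after the data were seen) was 441 lower with array weights, 176 lower and 268 higher among those above the array median, and 136 lower and 67 higher among those with a gene symbol, the latter 4 counts over fewer transcript clusters. Leaving out 1 array gave 352 to 1042 lower and 753 to 1370 higher, with 1042 lower without Foxp3Cre replicate 3, 638 and 682 lower without Foxp3CreTgfbr2f/f replicates 2 and 3, and 548 lower and 1370 higher without replicate 1, and with 1091 higher without Foxp3Cre replicate 2; the cause was not tested. Without 1 lower-intensity array, the genes lower in both sets numbered 28 to 53 (53 without Foxp3CreTgfbr2f/f replicate 2, 45 without Foxp3Cre replicate 2) and those higher 16 to 25 (25 without Foxp3CreTgfbr2f/f replicate 3, 23 without Foxp3Cre replicate 2), where 1 array a group overlaps less. Of the 28 lower genes, 20 to 27 were kept in each of these, and 28 with the values as deposited (of 29) or quantile normalised (of 31). Of the 12 higher genes, 7 to 10 were kept without 1 array, and 9 with either scaling.

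Of 199 genes compared, 49 were at 1.5-fold or more over the 6 arrays, and those of them whose sign turned in the higher-intensity pair were Ccr6 (0.21), Smad7 (0.020), Skil (0.058), Ikzf4 (0.14), Ctsw (0.070), Arhgap20 (0.53), Gsta4 (0.066), Tbx21 (-0.18), Lilrb4a (-0.21), Pmepa1 (0.13), Cd22 (-0.60), Mirt1 (-0.12), Xlr3b (-0.14) and Plpp1 (-0.48). Leaving out 1 array moved Fos between -1.31 (without Foxp3CreTgfbr2f/f replicate 2) and 0.090 (without replicate 1), and Lilrb4a between -0.22 (without Foxp3Cre replicate 3) and 2.95 (without Foxp3CreTgfbr2f/f replicate 1). The cause was not tested. Neither scaling turned the sign of any of the 49.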

Other observations

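Some genes not described in full above also lay on the same side in both intensity sets. Their size was under 1.5-fold in 1 of the sets, or their groups overlapped. Fosl2, an AP-1 subunit gene linked to repression in Treg cells, was at 3.10, 2.16 and 2.21 on the Foxp3Cre arrays and at 3.20, 4.15 and 2.98 on the Foxp3CreTgfbr2f/f arrays. Foxp3Cre replicate 1 overlapped the knockout arrays, and the difference was 0.94 in the lower-intensity arrays and 0.99 in the higher-intensity pair. Hdac9, a histone deacetylase gene, was at 0.17, 0.08 and 0.06 against 1.38, 0.55 and 0.40. Its groups did not overlap, with 0.35 in the lower-intensity arrays and 1.32 in the higher-intensity pair (adjusted p = 1.00 over the 6 arrays by limma).

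Il18r1, the receptor gene of IL-18, was at 2.88, 2.48 and 2.33 on the Foxp3Cre arrays and at 2.28, 1.34 and 1.46 on the Foxp3CreTgfbr2f/f arrays, without overlap, but by -1.28 in the lower-intensity arrays and by -0.06 in the higher-intensity pair. Il18 itself did not lie on the same side, at 0.95 in the lower-intensity arrays and -0.46 in the higher-intensity pair. Ccl5, a chemokine gene of effector T cells, was at 3.23, 4.01 and 2.71 against 2.90, 4.20 and 5.01, with overlapping groups and differences of 0.98 and 0.19.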
